A study of Mus musculus with 16 samples.

Results

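Neutrophil-committed granulocyte-monocyte progenitors (GMPs) were examined among lineage-negative (Lin-) c-Kit+ CD45+ cells of mouse bone marrow, the sort that holds hematopoietic stem and progenitor cells. The cells were chosen by their unique molecular identifiers (UMIs, the count of captured RNA molecules per gene). A cell was a member when it had more than 200 and fewer than 6000 genes, at most 10% mitochondrial UMIs, at least 10 UMIs of Elane, at least 2 UMIs of Cebpe and Fcnb together, at most 1 UMI of Csf1r and F13a1 together and at most 1 UMI of Dntt. The rule gave 2307 members of 28155 cells that passed the cell filter, from 30935 barcodes of 6 libraries. The series holds 77636 barcodes in 16 libraries.

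The groups were 2 libraries each of WT, vehicle and IACS-70654. All mice were female BALB/c. WT mice bore no tumor and were untreated. Vehicle and IACS-70654 mice carried 2208L, a Trp53-null mammary tumor grown from transplanted pieces and used as a model of triple-negative breast cancer, and were given methylcellulose or IACS-70654, an inhibitor of the bromodomain of the acetyltransferases CBP and P300, for 7 days by the series description, in cycles of dosing and rest. The study's text gives a shorter course for these same cells, and the sources do not settle which length holds. Vehicle against WT therefore differed in tumor and in dosing together, and these cannot be told apart. Marrow was taken 24 hours after the last treatment, and each sample pooled the cells of 3 mice. Recipients were 7 to 8 weeks old at transplantation, and age at collection is not given in the sources used here. The 2 libraries of a group may be parts of 1 pool, so p-values measure the spread between these libraries, which may be technical.

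Neutrophils arise from GMPs that stop producing monocytes and begin to fill granules. Azurophil (primary) granules, with the proteases Elane, Prtn3 and Ctsg and the peroxidase Mpo, are made first, at the promyelocyte stage. The transcription factor Cebpe then drives secondary granule genes such as Ltf, Camp and Ngp, and S100a8 and S100a9, which form calprotectin, become abundant in the cytosol. Fcnb, a ficolin, marks the early step of this course, Csf1r and F13a1 mark monocytic cells, and Dntt marks lymphoid-primed cells. Tumors often expand this lineage in marrow.

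Markers of the label were strong in every library. The summed level of 10 genes of neutrophil-committed GMPs ran from 25624 to 30512 CPM (a gene's UMIs scaled to a library total of 1000000, after summing the members of a library), with none of the 10 at 0. This holds in part by construction, because 3 of them are in the rule. Mpo was at 5819 and 5570 CPM in WT, 5413 and 5628 CPM in vehicle, and 6165 and 6167 CPM in IACS-70654, and Prtn3 at 7469 and 6959 CPM in WT, 9894 and 9834 CPM in vehicle, and 8434 and 8862 CPM in IACS-70654. Secondary granule genes were sparse. In members thinned to 5000 UMIs and split by their S100a8 UMIs, no split of any library averaged more than 0.185 UMIs of Camp or 0.296 of Ngp per cell, and Ltf stayed below both. Markers of mature neutrophils summed to 112 and 88.4 CPM in WT, 249.8 and 250.3 CPM in vehicle, and 98.7 and 113 CPM in IACS-70654 over 10 genes, of which 3 or 4 were at 0 in each library. A single gene, Wfdc21, whose levels are given below, held most of this sum in every library. Between vehicle and WT it was the only call among the 4 tested genes of the list.

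The members per library numbered 190 and 94 in WT, 891 and 327 in vehicle mice and 509 and 296 with IACS-70654. Median UMIs per member ran from 9952 to 11430 and median genes from 3053 to 3371. No barcode was shared between libraries. Members with 5 or more UMIs of another lineage (basophil or mast, eosinophil, megakaryocyte or erythroid) numbered 15 and 11 in WT, 93 and 27 in vehicle mice and 26 and 20 with IACS-70654. Their share was 7.89% and 11.7% in WT, 10.4% and 8.26% in vehicle mice and 5.11% and 6.76% with IACS-70654. Whether these were doublets was not tested, and the shares, and the count of called genes between IACS-70654 and vehicle, are given with and without them.

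The genes of the rule are described without a test. Elane was at 7170 and 6667 CPM in WT, 6599 and 6730 CPM in vehicle, and 7904 and 7969 CPM in IACS-70654, and Cebpe at 292 and 279 CPM in WT, 273 and 278 CPM in vehicle, and 277 and 281 CPM in IACS-70654. Cebpe was close in all 6 libraries, and Elane was higher in both IACS-70654 libraries than in the other 4. The median of Cebpe was 2 or 3 UMIs per member, at the limit of the rule. Its near-equal level is therefore partly fixed by the rule and does not show that Cebpe was unchanged. Fcnb was at 46.6 and 45.2 CPM in WT, 65.9 and 75.8 CPM in vehicle, and 18.04 and 16 CPM in IACS-70654, so IACS-70654 had the lowest libraries and vehicle the highest. Of the members, 7.89% and 14.9% in WT, 15.04% and 17.4% in vehicle mice and 4.72% and 4.05% with IACS-70654 met the rule through Fcnb alone, having fewer than 2 UMIs of Cebpe. The Elane limit was far from most cells. Members with 10 to 14 UMIs of Elane numbered 4 and 8 in WT, 30 and 9 in vehicle mice and 16 and 11 with IACS-70654, and cells just outside, with 5 to 9, numbered 7 and 6, 21 and 3, and 16 and 7. The second limit lay among the cells. Members with exactly 2 UMIs of Cebpe and Fcnb numbered 63 and 34 in WT, 281 and 106 in vehicle mice and 188 and 105 with IACS-70654, and cells with 1 numbered 85 and 71, 294 and 138, and 271 and 154.

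The first question was how large this compartment was in each group. Members made up 4.90% (95% exact binomial interval 4.24 to 5.63) and 3.09% (2.51 to 3.77) of kept Lin- c-Kit+ cells in WT. They made up 13.6% (12.7 to 14.4) and 11.5% (10.4 to 12.8) in vehicle, and 6.77% (6.21 to 7.36) and 6.86% (6.12 to 7.65) in IACS-70654. The intervals cover counting error only. Both vehicle libraries lay above both IACS-70654 libraries, which lay above both WT libraries. Because Fcnb, a gene of the rule, itself differed between the groups, the shares were tested under a rule without it (at least 2 UMIs of Cebpe). They were then 4.52% and 2.63% in WT, 11.5% and 9.52% in vehicle mice and 6.45% and 6.58% with IACS-70654, in the same order and without overlap.

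Under the rule without Fcnb, the share was higher in vehicle than in WT (log2 difference 1.55 ± 0.18 SE, adjusted p = 1.9e-06, edgeR's quasi-likelihood test on cells of 10 classes per library), lower in IACS-70654 than in vehicle (log2 difference -0.71 ± 0.15 SE, adjusted p = 0.0006) and higher in IACS-70654 than in WT (log2 difference 0.83 ± 0.18 SE, adjusted p = 0.00092). An exact 2-sided permutation test of 2 libraries against 2 cannot go below p = 0.333. Without members carrying UMIs of other lineages the shares by this rule were 4.13% and 2.30% in WT, 10.2% and 8.60% in vehicle mice and 6.11% and 6.14% with IACS-70654. The log2 differences were then 1.53 ± 0.18 SE, adjusted p = 6.4e-07 for vehicle versus WT, -0.64 ± 0.15 SE, adjusted p = 0.00084 for IACS-70654 versus vehicle, and 0.89 ± 0.18 SE, adjusted p = 0.00039 for IACS-70654 versus WT. Among myeloid cells alone (Elane at least 10, or Csf1r and F13a1 at least 4), members by the rule without Fcnb were 18.3% and 11.98% in WT, 23.7% and 20.9% in vehicle mice and 21.8% and 22.5% with IACS-70654. None of the 3 differences passed at this denominator (log2 difference 0.54 ± 0.18 SE, adjusted p = 0.0843 for vehicle versus WT, log2 difference -0.038 ± 0.15 SE, adjusted p = 0.806 for IACS-70654 versus vehicle, and log2 difference 0.50 ± 0.19 SE, adjusted p = 0.0575 for IACS-70654 versus WT). A fall or rise of a share cannot be told from a change in the other cells of the sort.

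**Figure D1:**
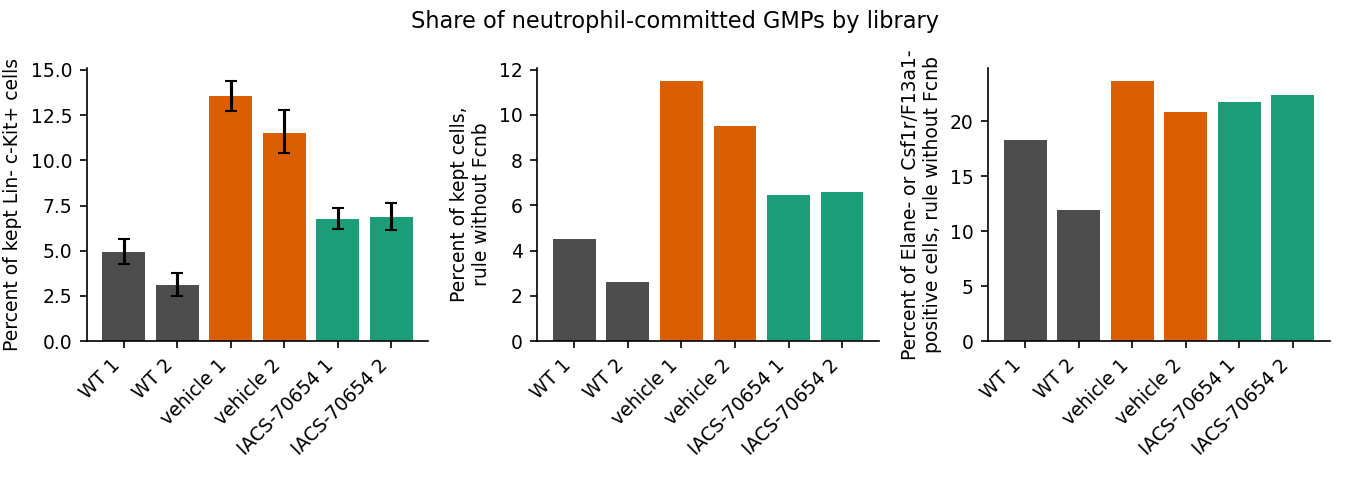
Percent of cells that were neutrophil-committed GMPs in each of the 6 Lin- c-Kit+ libraries (bars, 1 per library; colors mark WT, vehicle and IACS-70654): of all kept cells with 95% exact binomial intervals (left), of all kept cells under the rule without Fcnb (middle), and of myeloid cells under the rule without Fcnb (right). In the left panel both vehicle libraries, at 13.6% and 11.5%, stood above the IACS-70654 libraries, at 6.77% and 6.86%, and these above WT, and in the right panel the vehicle and IACS-70654 libraries lay between 20.9% and 23.7%.

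Elane-positive cells as a whole followed the same order. Cells with at least 10 UMIs of Elane were 20.2% and 17.9% in WT, 44.5% and 41.6% in vehicle mice and 27.5% and 26.8% with IACS-70654 of kept cells, and members were 24.3% and 17.3% in WT, 30.5% and 27.7% in vehicle mice and 24.6% and 25.6% with IACS-70654 of those. Elane-positive cells with fewer than 2 UMIs of Cebpe and Fcnb together, a class that Fcnb helps to set and in which many cells carried 1 such UMI (85 of 165 in WT 1, 294 of 532 in vehicle 1 and 271 of 593 in IACS-70654 1), were 4.26% and 3.88% of kept cells in WT, 8.10% and 8.64% in vehicle mice and 7.89% and 8.22% with IACS-70654. With the class set by Cebpe alone, it was higher in vehicle than in WT (log2 difference 1.20 ± 0.11 SE, adjusted p = 2.9e-07). Between IACS-70654 and vehicle its direction depended on how cells were counted, at log2 difference -0.31 ± 0.10 SE, adjusted p = 0.0101 as counted and log2 difference 0.16 ± 0.062 SE, adjusted p = 0.0165 under a rule on thinned cells, so no direction is given. As background, 0.41% to 1.99% of erythroid cells, which should lack these genes, met the rule, a range below that of the members in any library. Median UMIs per kept cell ran from 6712 to 9512 and were lowest in the IACS-70654 libraries. An alternative changed 3 choices together, thinning each cell to 5000 UMIs, lowering the limits (Elane at least 5, Cebpe at least 1, with no Fcnb) and leaving out shallower cells. It kept 74.9% and 73.97% of the cells of the WT libraries, 80.9% and 77.5% of vehicle, and 66.6% and 65.6% of IACS-70654. Members were then 7.03% and 5.38% in WT, 15.5% and 14.5% in vehicle mice and 12.8% and 12.5% with IACS-70654. The difference between vehicle and WT was 1.27 ± 0.084 SE, adjusted p = 7.5e-15 on the log2 scale, against 1.55 above. That between IACS-70654 and vehicle was -0.26 ± 0.063 SE, adjusted p = 0.00037, against -0.71, and that between IACS-70654 and WT was 1.01 ± 0.087 SE, adjusted p = 4.3e-12, against 0.83. Which of the 3 choices moved the values was not tested.

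The second question was how the RNA of these cells differed between tumor-bearing, vehicle-treated mice and WT mice. UMIs were summed over the members of a library, and edgeR's quasi-likelihood test was run on 10818 genes. Calls required a Benjamini-Hochberg adjusted p under 0.01 together with a log2 change beyond 0.5 in either direction, and only called genes are said to rise or fall. Between vehicle and WT 98 genes were called (0.906% of those tested), 58 higher (0.536%) and 40 lower (0.37%). Under the rule without Fcnb 84 were called, 77 of them among the 98. DESeq2 called 31, of which 30 were among the 98, but it gave an adjusted p for only 2163 genes here. Thinning every member to 5000 UMIs gave 54 calls, of which 39 were among the 98. Counts without single libraries are given below. The median over all genes tested was -0.011 on the log2 scale.

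Genes of granule content and acute phase response were among the rises. Hp, which encodes haptoglobin, stood at 187 and 146 CPM in WT against 271 and 295 CPM in vehicle (log2 change 0.69 ± 0.078 SE, adjusted p = 7.3e-08). Lcn2, the iron-binding lipocalin of secondary granules, stood at 13.4 and 10.8 CPM in WT against 27.6 and 27.5 CPM in vehicle (log2 change 1.12 ± 0.22 SE, adjusted p = 0.00071), a call that ended without WT 1 (log2 change 1.35, adjusted p = 0.0269). The groups did not overlap for either gene. Of the secondary and tertiary granule proteins 2 of 8 tested genes rose and 0 fell (median log2 change 0.46), and these were the 2. Wfdc21, a whey acidic protein-domain gene listed among mature neutrophil markers, stood at 65.4 and 51.1 CPM in WT against 207 and 207 CPM in vehicle (log2 change 1.75 ± 0.10 SE, adjusted p = 9.7e-16). Of azurophil granule genes 0 of 10 tested genes rose and 0 fell (median log2 change 0.18), where 0.906% of all genes were called. DESeq2 called 0 as well. At an unadjusted p under 0.05 in edgeR's test, which 1700 of all 10818 genes met, 6 azurophil genes were higher and 2 lower. Their summed level, which leaves out the rule gene Elane, was higher in both vehicle libraries, at 27263 and 27108 CPM, than in WT, at 23563 and 22559 CPM. Within that list Prtn3 (proteinase 3) differed by 0.43 on the log2 scale (adjusted p = 2e-13), under the limit on size.

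S100a8 and S100a9 were also higher in vehicle, but less firmly. S100a8 stood at 404 and 248 CPM in WT against 469 and 616 CPM in vehicle (log2 change 0.63 ± 0.11 SE, adjusted p = 9.7e-05), and S100a9 at 922 and 492 CPM in WT against 967 and 1377 CPM in vehicle (log2 change 0.64 ± 0.13 SE, adjusted p = 0.00089). For S100a9 the lower vehicle library was barely above the higher WT library. The S100a8 call ended without WT 2 (log2 change 0.38, adjusted p = 0.00056), without vehicle 2 (log2 change 0.43, adjusted p = 1.4e-08) and with DESeq2 (adjusted p = 0.218). The S100a9 call also ended without WT 2 (log2 change 0.30, adjusted p = 0.0135), without vehicle 2 (log2 change 0.36, adjusted p = 2.9e-07) and with DESeq2 (adjusted p = 0.378).

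Signaling and metabolic genes were among the remaining rises. Pim1, a serine-threonine kinase induced by cytokine signals through STAT proteins, stood at 50.6 and 49.1 CPM in WT against 103 and 118 CPM in vehicle (log2 change 1.09 ± 0.11 SE, adjusted p = 8.9e-09), the single rise in the list of JAK-STAT regulators (1 of 11 tested genes). Gclm, a subunit of the enzyme that starts glutathione synthesis, stood at 138 and 116 CPM in WT against 201 and 197 CPM in vehicle (log2 change 0.59 ± 0.079 SE, adjusted p = 1.3e-06). Ifitm1, an interferon-induced membrane protein, stood at 114 and 118 CPM in WT against 227 and 229 CPM in vehicle (log2 change 0.95 ± 0.082 SE, adjusted p = 7.2e-11), and it was the only called gene of 25 tested in the type I interferon list, whose median was -0.021. Rhoj, a small GTPase, stood at 8.43 and 8.84 CPM in WT against 26.1 and 34.9 CPM in vehicle (log2 change 1.72 ± 0.26 SE, adjusted p = 1.6e-05). Dmkn stood at 34.2 and 22.6 CPM in WT against 70.98 and 74.7 CPM in vehicle (log2 change 1.23 ± 0.15 SE, adjusted p = 1.9e-07).

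Among genes averaging at least 20 CPM in 1 of the groups, Gm47283 showed the largest fall, at 146 and 141 CPM in WT against 53.2 and 62.7 CPM in vehicle (log2 change -1.38 ± 0.10 SE, adjusted p = 9.4e-13). Angpt1, a ligand of the receptor Tie2, stood at 108 and 108 CPM in WT against 64.4 and 50.6 CPM in vehicle (log2 change -0.87 ± 0.11 SE, adjusted p = 4.5e-07). Of stem and multipotent progenitor genes 0 of 22 tested genes rose and 1 fell (median log2 change -0.055), and of monocyte lineage genes 0 of 9 tested genes rose and 1 fell (median log2 change 0.012). Those falls were Sox4 and Ly6c2, and each was lost without WT 1 (adjusted p = 0.0730 and 0.362) and without vehicle 1 (adjusted p = 0.0777 and 0.0633).

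Eosinophil genes were also higher in vehicle than in WT, and they came from few cells. The summed level of 8 eosinophil markers was 83.8 and 121 CPM in WT, 299.9 and 377 CPM in vehicle, and 68.5 and 21.5 CPM in IACS-70654. Prg2, the eosinophil major basic protein, stood at 52.04 and 60.9 CPM in WT against 202 and 252 CPM in vehicle (log2 change 1.98 ± 0.19 SE, adjusted p = 9.6e-10), but only 9.57% to 11% of members in WT and vehicle had a UMI of it, and 1 cell gave 13.8% and 52.7% of its UMIs in the vehicle libraries. Igkc, an immunoglobulin light chain, was at 86.7 and 78.6 CPM in WT, 909 and 88.1 CPM in vehicle, and 779 and 839.7 CPM in IACS-70654, and 1 cell gave 44.2%, 88.96% and 89.3% of its UMIs in vehicle 1 and in the IACS-70654 libraries. The 12 B and lymphoid markers, among them the heavy chain gene Ighm but not Igkc, summed to 72.9 and 64.8 CPM in WT, 196 and 67.8 CPM in vehicle, and 234 and 252 CPM in IACS-70654. The call of Igkc in vehicle against WT ended without vehicle 1 (log2 change 0.04, adjusted p = 0.949).

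The third question was how the RNA of these cells differed with CBP/P300 bromodomain inhibition in tumor-bearing mice. Between IACS-70654 and vehicle 405 genes were called (3.74% of those tested), 155 higher (1.43%) and 250 lower (2.31%). Members here met the full rule, through Fcnb alone more often in vehicle than in IACS-70654. Under the rule without Fcnb 356 genes were called, 333 of them among the 405. DESeq2 called 116, of which 115 were among the 405. Thinning to 5000 UMIs gave 216 calls, of which 188 were among the 405. Counts without single libraries are given below. The median over all genes tested was 0.0073. The genes of the drug's targets did not pass. Crebbp, which encodes CBP, was at 94.7 and 97.3 CPM in WT, 74.97 and 81.8 CPM in vehicle, and 92.7 and 87.3 CPM in IACS-70654 (log2 change 0.20 ± 0.073 SE, adjusted p = 0.0623), and Ep300, which encodes P300, at 42.1 and 48.1 CPM in WT, 43.3 and 45.8 CPM in vehicle, and 51.6 and 51.5 CPM in IACS-70654 (log2 change 0.20 ± 0.093 SE, adjusted p = 0.175). None of 16 acetyltransferase and bromodomain genes was called in any of the 3 comparisons, but at 3.74% few calls would fall in a list of this size. At an unadjusted p under 0.05 in edgeR's test, which 2771 of all 10818 genes met, 4 of these genes were higher in IACS-70654 than in vehicle and 0 lower.

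S100a8 (chr3:90668978-90670035, plus strand, mm10) showed the largest rise among genes averaging at least 20 CPM in 1 of the groups, at 404 and 248 CPM in WT, 469 and 616 CPM in vehicle, and 3307 and 4047 CPM in IACS-70654. Both IACS-70654 libraries stood far above the other 4, and the ratio of mean CPM to vehicle was 6.78 (log2 change 2.75 ± 0.092 SE, adjusted p = 1.5e-23). S100a9 (chr3:90692632-90695721, minus strand), whose product pairs with that of S100a8, was at 922 and 492 CPM in WT, 967 and 1377 CPM in vehicle, and 3503 and 4333 CPM in IACS-70654, with a ratio of 3.34 (log2 change 1.73 ± 0.12 SE, adjusted p = 1.9e-14). Leaving out any 1 of the 6 libraries kept the log2 change of S100a8 between 2.56 and 2.93 and that of S100a9 between 1.49 and 1.98. Over all genes 1.43% were called higher and 2.31% lower. Of the S100 proteins, small calcium-binding proteins, 4 of 7 tested genes rose and 0 fell (median log2 change 0.52). The other rises were S100a10, at 85.6 and 83.8 CPM in vehicle against 126 and 123 CPM in IACS-70654 (log2 change 0.52 ± 0.065 SE, adjusted p = 1.2e-07), and S100a6, which had few UMIs and lost its call without vehicle 1 (adjusted p = 0.205) and without IACS-70654 1 (adjusted p = 0.328). Under the rule without Fcnb, S100a10 fell under the limit on size (log2 change 0.46, adjusted p = 2.3e-06).

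S100a8 and S100a9 lie 22596 bases apart on opposite strands, and their promoters (250 bases before to 50 after the annotated start, RefSeq, GRCm38.p6, 5′ to 3′ on the gene's strand) are shown because the pair rose together. Those of Cst7, the azurophil-list gene with the steepest fall, and of Fcnb, the rule gene with the largest difference between the groups, are shown for contrast. Capitals mark matches on either strand to 4 motifs. The C/EBP-type motif TTGCNNAA was held by 10.8% of 32817 promoters of this length. The ETS-type motif GAGGAA was held by 28.3% of them, the TATA box TATAAA by 13.6%, and the E-box CACGTG by 7.15%.
S100a8, chr3:90668821-90669120, plus strand: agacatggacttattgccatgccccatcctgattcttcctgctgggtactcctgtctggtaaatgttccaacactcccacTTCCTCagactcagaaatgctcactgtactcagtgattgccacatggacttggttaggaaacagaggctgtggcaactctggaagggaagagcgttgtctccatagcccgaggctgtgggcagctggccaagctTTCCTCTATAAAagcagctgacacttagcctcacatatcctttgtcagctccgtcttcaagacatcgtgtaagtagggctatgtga
S100a9, chr3:90695672-90695971, minus strand: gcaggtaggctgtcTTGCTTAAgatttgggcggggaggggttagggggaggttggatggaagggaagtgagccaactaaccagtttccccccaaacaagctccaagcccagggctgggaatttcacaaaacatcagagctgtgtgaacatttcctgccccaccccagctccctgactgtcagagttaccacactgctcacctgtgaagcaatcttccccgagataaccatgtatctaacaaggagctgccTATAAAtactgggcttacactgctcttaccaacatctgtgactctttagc
Cst7, chr2:150570165-150570464, plus strand: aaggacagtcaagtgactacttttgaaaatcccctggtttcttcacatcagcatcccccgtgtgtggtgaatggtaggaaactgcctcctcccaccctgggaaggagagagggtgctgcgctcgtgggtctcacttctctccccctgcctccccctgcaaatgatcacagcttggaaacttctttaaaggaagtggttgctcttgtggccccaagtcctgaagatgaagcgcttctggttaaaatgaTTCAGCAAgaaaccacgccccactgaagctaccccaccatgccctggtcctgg
Fcnb, chr2:28084829-28085128, minus strand: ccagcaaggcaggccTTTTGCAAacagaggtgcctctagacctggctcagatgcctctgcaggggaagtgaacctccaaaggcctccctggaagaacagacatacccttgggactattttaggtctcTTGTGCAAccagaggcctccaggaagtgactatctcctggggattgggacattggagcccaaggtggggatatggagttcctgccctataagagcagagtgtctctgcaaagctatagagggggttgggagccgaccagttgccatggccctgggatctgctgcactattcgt
Counted from the RefSeq start as 0, which for S100a8 lies downstream of the start of its GENCODE gene, S100a8 had 2 ETS-type matches on the minus strand of the gene, at -170 and -36, the second directly before a TATA box at -30. S100a9 had a C/EBP-type match at -236 and a TATA box at 0. Fcnb had 2 C/EBP-type matches, at -235 and -123, and Cst7 had 1, at -3. No match overlapped another, and the E-box was in none of the 4 windows. The matches are a description of these windows, not binding sites.

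The rise of S100a8 was unevenly spread over the members. After thinning each member to 5000 UMIs (10 and 7 members of the WT libraries, 91 and 43 of vehicle, and 17 and 10 of IACS-70654 were shallower and left out), members with 10 or more UMIs of S100a8 were 7.22% and 3.45% in WT, 9.62% and 9.51% in vehicle mice and 30.7% and 32.2% with IACS-70654. Members with any UMI of it were 37.8% and 26.4% in WT, 41.8% and 41.5% in vehicle mice and 58.5% and 57.7% with IACS-70654, against 6.45% to 10.4% of erythroid cells thinned alike, which should lack it. Within each library the members with 10 or more UMIs of S100a8 held more Elane, as in IACS-70654 1, with 62.5 UMIs per cell on average against 26.5 in members with none, and in vehicle 1, with 51.8 against 29.4. They held less Cd34, a progenitor surface antigen, with 0.139 against 0.564 in IACS-70654 1 and 0.0649 against 0.378 in vehicle 1. In these S100a8-rich members Ltf had no UMI in any of the 6 libraries, and Camp averaged 0 in IACS-70654 1 and 0.0870 in IACS-70654 2. These are descriptions over cells of 1 library, with no test.

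S100a8 was also higher with IACS-70654 in other classes of the same libraries. In Elane-positive cells with fewer than 2 UMIs of Cebpe and Fcnb it was at 128 and 160.2 CPM in WT, 373 and 262 CPM in vehicle, and 1483 and 1361 CPM in IACS-70654. In monocyte progenitors (Csf1r and F13a1 at least 4 UMIs together, Cebpe and Fcnb at most 1) it was at 25.9 and 19.6 CPM in WT, 37.4 and 28.4 CPM in vehicle, and 547 and 515 CPM in IACS-70654. In erythroid cells, which should lack it, it lay between 13.4 and 16.7 CPM in all 6 libraries. The log2 change of the members was smaller than that of monocyte progenitors for S100a8 (difference -1.12 ± 0.078 SE, adjusted p = 8.9e-26) and for S100a9 (difference -1.34 ± 0.077 SE, adjusted p = 3.2e-32), whereas the level stayed highest in the members.

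**Figure D2:**
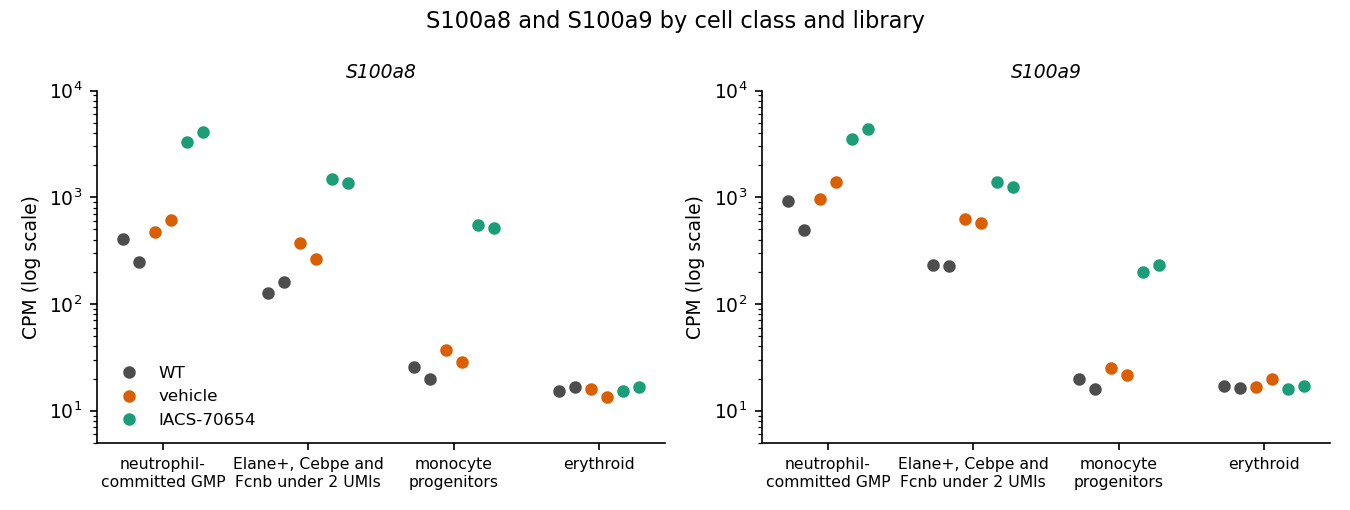
S100a8 (left) and S100a9 (right) in CPM on a log scale in 4 classes of the Lin- c-Kit+ sort, 1 point per library, colored by group. The IACS-70654 points stand above vehicle and WT in the 3 myeloid classes, by more in monocyte progenitors, and lie among the other points, between 13.4 and 16.7 CPM for S100a8, in erythroid cells.

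Several other genes rose with IACS-70654. Anxa1, which encodes annexin A1, a phospholipid-binding protein that restrains neutrophil recruitment, was at 106 and 103 CPM in WT, 80.5 and 100.1 CPM in vehicle, and 229 and 243 CPM in IACS-70654 (log2 change 1.40 ± 0.068 SE, adjusted p = 8.7e-19). Fcer1g, the signaling chain shared by Fc receptors, was at 59.97 and 64.8 CPM in WT, 40.2 and 39.8 CPM in vehicle, and 85.4 and 105 CPM in IACS-70654 (log2 change 1.19 ± 0.092 SE, adjusted p = 1e-12). Hdac9, a class IIa histone deacetylase, was at 31.7 and 63.9 CPM in WT, 63.2 and 54.4 CPM in vehicle, and 205 and 184 CPM in IACS-70654, 3.31 times the vehicle mean (log2 change 1.67 ± 0.082 SE, adjusted p = 1.1e-18). No library overlapped between vehicle and IACS-70654 for these 3 genes. Of the histone deacetylases 2 of 15 tested genes rose and 1 fell (median log2 change 0.032), against 1.43% and 2.31% of all genes. In thinned members Hdac9 went the other way from S100a8, with 0.258 UMIs per cell in S100a8-rich members of IACS-70654 1 and 1.65 in those without S100a8.

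H1fx, a linker histone, stood at 19.04 and 18.02 CPM in vehicle against 44.6 and 34.3 CPM in IACS-70654 (log2 change 1.08 ± 0.13 SE, adjusted p = 3.1e-08), and Map4k4, a kinase of stress signaling, at 11.96 and 17.7 CPM in vehicle against 31.7 and 36.4 CPM in IACS-70654 (log2 change 1.27 ± 0.15 SE, adjusted p = 2.3e-08). Cdkn1a, which encodes the cell cycle inhibitor p21, stood at 10.3 and 13.2 CPM in vehicle against 27.6 and 21.8 CPM in IACS-70654 (log2 change 1.16 ± 0.16 SE, adjusted p = 1.3e-06), a call that every left-out library kept and DESeq2 did not (log2 change 1.08, adjusted p = 0.0384). Irf8, the factor that steers GMPs toward monocytes and dendritic cells, stood at 12.2 and 15.2 CPM in vehicle against 25.2 and 25.9 CPM in IACS-70654 (log2 change 0.94 ± 0.15 SE, adjusted p = 8.6e-06), and this call ended without vehicle 1 (log2 change 0.73, adjusted p = 0.0162), with DESeq2 (adjusted p = 0.0462), in thinned members (adjusted p = 0.0447) and, by size, under the thinned rule (log2 change 0.44). Mxd4, a partner of Max, stood at 34.3 and 33.2 CPM in vehicle against 53.3 and 53.2 CPM in IACS-70654 (log2 change 0.62 ± 0.10 SE, adjusted p = 1.5e-05) and was lost with DESeq2 (log2 change 0.63, adjusted p = 0.0385). Of the Myc, Max and Mxd network 2 of 9 tested genes rose and 0 fell (median log2 change 0.016), against 1.43% and 2.31% of all genes. DESeq2 called 0 genes of the network. Myc itself stood at 76.1 and 77.5 CPM in vehicle against 77.8 and 77.1 CPM in IACS-70654 (log2 change -0.013 ± 0.08 SE, adjusted p = 0.952).

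Some genes that had risen in vehicle, among them 4 described here, fell with IACS-70654. The same 2 vehicle libraries enter both comparisons, so a gene picked for standing high in them is favored to fall. How many of all the rises fell is not given here. Ifitm1 was at 114 and 118 CPM in WT, 227 and 229 CPM in vehicle, and 67.6 and 54.7 CPM in IACS-70654, with IACS-70654 below WT as well (log2 change -1.89 ± 0.069 SE, adjusted p = 1e-22). Wfdc21 was at 65.4 and 51.1 CPM in WT, 207 and 207 CPM in vehicle, and 77 and 88.7 CPM in IACS-70654, near the WT libraries again (log2 change -1.38 ± 0.067 SE, adjusted p = 9e-19). Dmkn was at 34.2 and 22.6 CPM in WT, 70.98 and 74.7 CPM in vehicle, and 18.4 and 22.7 CPM in IACS-70654 (log2 change -1.88 ± 0.11 SE, adjusted p = 4.9e-16), and Hp at 187 and 146 CPM in WT, 271 and 295 CPM in vehicle, and 162 and 171 CPM in IACS-70654 (log2 change -0.79 ± 0.063 SE, adjusted p = 3.4e-12). For Wfdc21, Dmkn and Hp the difference from WT did not pass (0.38, -0.65 and -0.10 on the log2 scale).

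Granule genes split. Cst7, the cystatin F that inhibits cathepsins within granules, was at 245 and 257 CPM in WT, 239 and 218 CPM in vehicle, and 83.4 and 85.8 CPM in IACS-70654 (log2 change -1.48 ± 0.065 SE, adjusted p = 3.6e-20). Nkg7, a granule membrane protein of cytotoxic and myeloid cells, was at 679 and 677 CPM in WT, 814 and 810.2 CPM in vehicle, and 393 and 374 CPM in IACS-70654 (log2 change -1.11 ± 0.045 SE, adjusted p = 4.1e-21). For both genes the IACS-70654 libraries were below all 4 others. These were the falls of the azurophil list, in which 0 of 10 tested genes rose and 2 fell (median log2 change -0.19), and its summed level was 23563 and 22559 CPM in WT, 27263 and 27108 CPM in vehicle, and 24691 and 25452 CPM in IACS-70654. At an unadjusted p under 0.05 in edgeR's test, which 2771 of all 10818 genes met, 1 azurophil gene was higher and 7 were lower. Elane, a rule gene, was not tested and is outside the counts and sum of this list. It was higher in IACS-70654, at 7904 and 7969 CPM against 6599 and 6730 CPM in vehicle. Mpo and the core proteases other than Elane were not called. Mpo differed from vehicle by 0.13 and Prtn3 by -0.22 on the log2 scale. Cd63, a tetraspanin of azurophil granule membranes, was at 556 and 556 CPM in WT, 588 and 585 CPM in vehicle, and 329 and 298 CPM in IACS-70654 (log2 change -0.92 ± 0.05 SE, adjusted p = 2e-17).

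In the list of secondary and tertiary granule proteins 1 of 8 tested genes rose and 3 fell (median log2 change -0.45), against 1.43% and 2.31% of all genes. Beside Hp, the falls were Cybb, the catalytic NADPH oxidase subunit, at 20.3 and 20.9 CPM in vehicle against 11.7 and 16.9 CPM in IACS-70654 (log2 change -0.62 ± 0.17 SE, adjusted p = 0.00865), and Ltb4r1, the leukotriene B4 receptor, at 75.9 and 76.4 CPM in vehicle against 51.3 and 55.3 CPM in IACS-70654 (log2 change -0.56 ± 0.082 SE, adjusted p = 3.7e-06). Ltb4r1 is a receptor of the cell surface, not granule content, though the list holds it. Cybb lost its call without vehicle 1 (log2 change -0.64, adjusted p = 0.0566) and without IACS-70654 1 (log2 change -0.31, adjusted p = 0.506), while Ltb4r1 dropped under the limit on size without IACS-70654 1 (log2 change -0.48, adjusted p = 0.00451). The rise was Lyz2, lysozyme, at 32.9 and 40.3 CPM in vehicle against 49.1 and 54.1 CPM in IACS-70654 (log2 change 0.51 ± 0.11 SE, adjusted p = 0.00067), which ended without vehicle 1 (log2 change 0.32, adjusted p = 0.211) and without IACS-70654 2 (log2 change 0.45, adjusted p = 0.0127). Lcn2, higher in vehicle than in WT, was at 27.6 and 27.5 CPM in vehicle against 29.6 and 32 CPM in IACS-70654 and did not pass (log2 change 0.11 ± 0.12 SE, adjusted p = 0.613).

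Falls outnumbered rises among genes of stem and multipotent progenitors, as they did over all genes (2.31% called lower and 1.43% higher). Of 22 tested genes 1 rose and 5 fell, and DESeq2 called 4 genes of the list. The median log2 change was 0.023, against 0.0073 over all genes. Hoxa9, a homeobox factor of immature progenitors, was at 25.3 and 28.5 CPM in WT, 34.3 and 34.3 CPM in vehicle, and 11.7 and 15.1 CPM in IACS-70654 (log2 change -1.43 ± 0.14 SE, adjusted p = 8e-10), and its neighbor Hoxa7 at 23.3 and 16.7 CPM in WT, 21.1 and 22.3 CPM in vehicle, and 10.4 and 11.3 CPM in IACS-70654 (log2 change -1.03 ± 0.16 SE, adjusted p = 1e-05). Mecom, the stem cell zinc finger factor also called Evi1, was at 30.2 and 50.1 CPM in WT, 41.9 and 43.2 CPM in vehicle, and 23.4 and 14.5 CPM in IACS-70654 (log2 change -1.11 ± 0.14 SE, adjusted p = 1.6e-07). Cd27, a receptor of the tumor necrosis factor family carried by early progenitors, was at 40.6 and 44.2 CPM in WT, 44.8 and 51.8 CPM in vehicle, and 18.2 and 14.5 CPM in IACS-70654 (log2 change -1.51 ± 0.12 SE, adjusted p = 7.4e-12), and Lmo2, a scaffold of stem cell transcription complexes, at 193 and 197 CPM in WT, 189 and 199.7 CPM in vehicle, and 133 and 131 CPM in IACS-70654 (log2 change -0.58 ± 0.059 SE, adjusted p = 1.1e-09). IACS-70654 was the lowest group for all 5 genes, with no overlap with vehicle. Hoxa7 lost its call with DESeq2 (adjusted p = 0.0284) and after thinning (adjusted p = 0.140). The rise in this list was Txnip, which lost its call without IACS-70654 1 (log2 change 0.51, adjusted p = 0.0511). Myb, a factor of progenitor growth, was at 548 and 553 CPM in vehicle against 531 and 516 CPM in IACS-70654 (log2 change -0.10 ± 0.045 SE, adjusted p = 0.151).

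Further falls of single genes were those of Muc13, a membrane mucin, at 39.6 and 49.1 CPM in WT, 51.2 and 54.4 CPM in vehicle, and 23.4 and 15.1 CPM in IACS-70654 (log2 change -1.39 ± 0.12 SE, adjusted p = 4.2e-11), and Ccl9, a chemokine, at 62.9 and 70.7 CPM in WT, 50.6 and 52.1 CPM in vehicle, and 27.9 and 27.9 CPM in IACS-70654 (log2 change -0.90 ± 0.10 SE, adjusted p = 2e-08). Tbxas1, thromboxane synthase, stood at 37.5 and 30.9 CPM in vehicle against 14.2 and 10.2 CPM in IACS-70654 (log2 change -1.51 ± 0.15 SE, adjusted p = 4.4e-10), and Bex6 at 26.2 and 25.2 CPM in vehicle against 10.2 and 6.69 CPM in IACS-70654 (log2 change -1.57 ± 0.17 SE, adjusted p = 3.3e-09). Muc13, Ccl9, Cd63, Lmo2 and Ifitm1, which fell, and Fcer1g, which rose, belong to a published signature of neutrophil differentiation. Of its 45 tested genes 3 rose and 6 fell (median log2 change -0.09), where 1.43% of all genes were called higher and 2.31% lower. The summed level of the signature was 58564 and 57159 CPM in WT, 61630 and 61276 CPM in vehicle, and 59478 and 60208 CPM in IACS-70654. Of trafficking and adhesion receptors 2 of 12 tested genes rose and 2 fell (median log2 change 0.22).

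**Figure D3:**
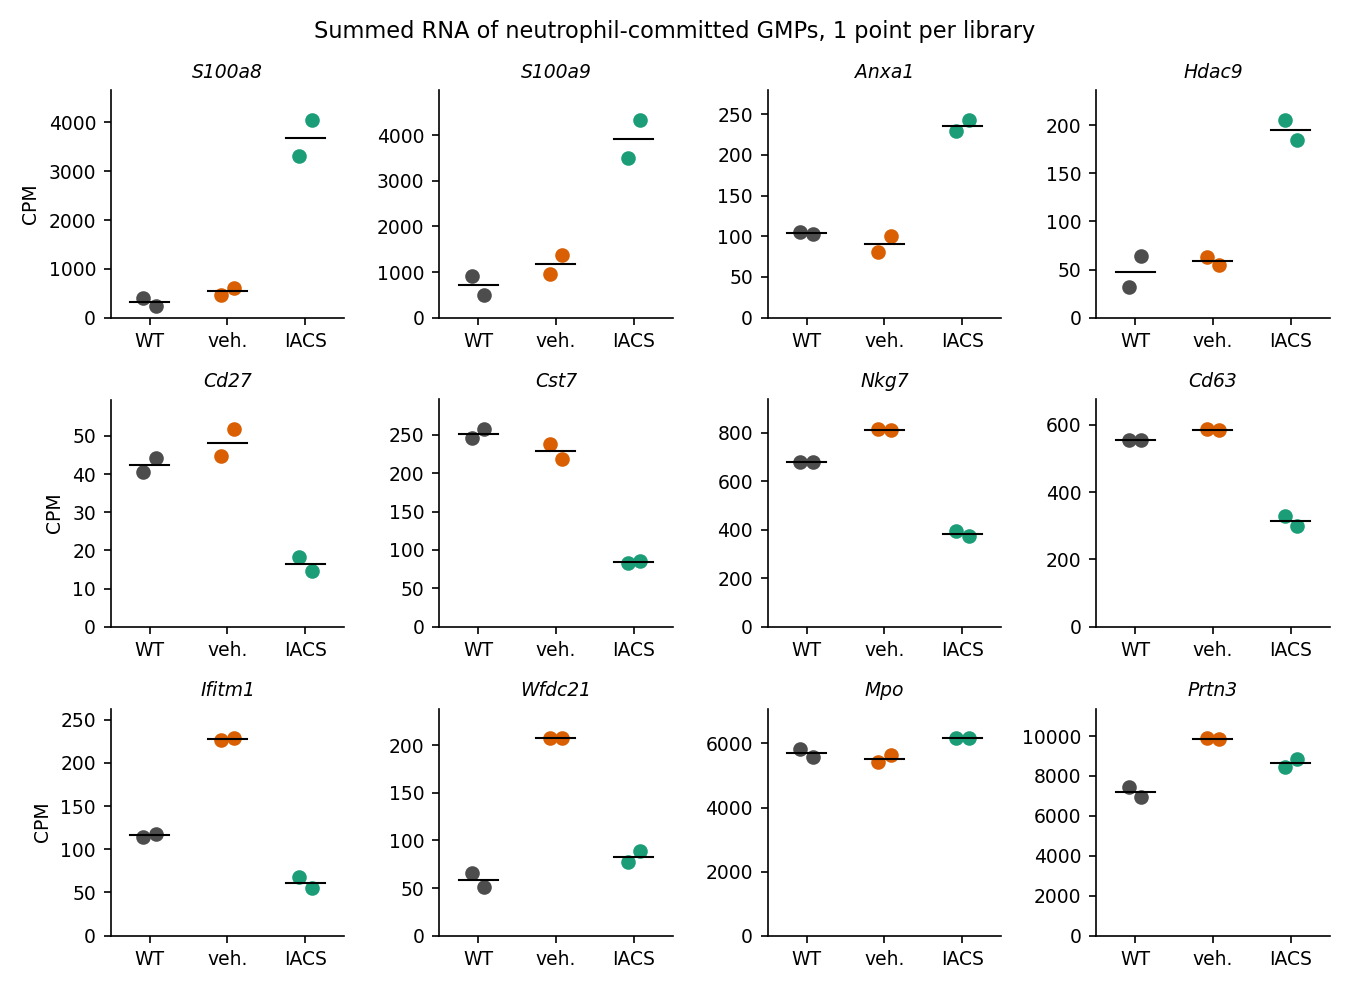
CPM of 12 genes in the summed members, 1 point per library with a line at the group mean, for WT, vehicle (veh.) and IACS-70654 (IACS), with each axis starting at 0. S100a8, S100a9, Anxa1 and Hdac9 were highest in IACS-70654, Cd27, Cst7, Nkg7 and Cd63 lowest, Ifitm1 and Wfdc21 were highest in vehicle, and Mpo and Prtn3 were not called.

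Of all genes tested between IACS-70654 and vehicle, 1.43% were called higher and 2.31% lower. Of type I interferon response genes 1 of 25 tested genes rose and 2 fell (median log2 change 0.028), and Ifitm1 was the fall that each alternative kept. The summed level of the interferon list was 1194 and 1226 CPM in WT, 1360 and 1376 CPM in vehicle, and 1221 and 1136 CPM in IACS-70654. Of class I antigen presentation genes 0 of 17 tested genes rose and 1 fell (median log2 change -0.19), with a summed level of 4417 and 4500 CPM in WT, 5248 and 5335 CPM in vehicle, and 4703 and 4509 CPM in IACS-70654. For both sums the vehicle libraries were the highest. A sum weighs abundant genes most. Between vehicle and WT the median log2 changes were -0.021 for the interferon list and 0.034 for the class I list, in which 0 genes were called. The sums therefore do not show a rise across either list. The class I fall was H2-Q7 (log2 change -0.52, from -0.80 to -0.38 when 1 library was left out). Its call was not kept in every leave-out, and DESeq2 called 0 class I genes. At an unadjusted p under 0.05 in edgeR's test, which 2771 of all 10818 genes met, 0 class I genes were higher and 10 lower. Of class II genes 1 of 4 tested genes rose and 0 fell (median log2 change 0.51). The rise was H2-Ab1 (log2 change 1.77, from 1.14 to 2.27 when 1 library was left out). Its call was not kept in every leave-out, and DESeq2 called 0 class II genes. Of growth factor and cytokine receptors 1 of 17 tested genes rose and 0 fell (median log2 change 0.15), and of 5 tested monocyte and dendritic transcription factors Irf8 was the only call. The receptor was Il6st (log2 change 1.20), which DESeq2 did not call and which was not kept in every leave-out. The list of granulocyte transcription factors held 1 call in 10 tested genes, Per3, which is a circadian clock gene rather than a granulocyte factor. Per3 was at 23.3 and 27.2 CPM in vehicle against 18.4 and 13.96 CPM in IACS-70654. Its call was lost without IACS-70654 2 (log2 change -0.44, adjusted p = 0.0819) and without vehicle 2 (log2 change -0.52, adjusted p = 0.0131).

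Proliferation and biosynthesis genes gave few calls, in a comparison where 3.74% of all genes were called, a share at which few would fall in lists of this size. None of 40 ribosome biogenesis genes, 37 replication genes or 39 mitosis genes was called between IACS-70654 and vehicle by edgeR or DESeq2, with medians of -0.054, -0.026 and 0.02. At an unadjusted p under 0.05 in edgeR's test, which 2771 of all 10818 genes met, 1 ribosome biogenesis gene was higher and 11 were lower. Replication genes numbered 4 and 4 there, and mitosis genes 6 and 6. Against WT, 1700 of all genes in vehicle and 2041 in IACS-70654 met that unadjusted limit. Ribosome biogenesis genes numbered 4 higher and 1 lower in vehicle and 2 and 3 in IACS-70654. More replication and mitosis genes stood higher than lower in both. Replication genes numbered 10 higher and 1 lower in vehicle (median log2 change 0.07) and 6 and 2 in IACS-70654 (median log2 change 0.12). Mitosis genes numbered 8 and 0 in vehicle (median log2 change 0.18) and 15 and 1 in IACS-70654 (median log2 change 0.21). The summed level of mitosis genes was 2438 and 2461 CPM in WT, 2746 and 2711 CPM in vehicle, and 2814 and 2822 CPM in IACS-70654, and both WT libraries were the lowest. After adjustment 0 mitosis genes were called by edgeR or DESeq2 in either comparison, though DESeq2 gave an adjusted p for only 2163 genes in vehicle versus WT. By edgeR 1 replication gene rose in each comparison, Rrm2 in vehicle versus WT and Ccne2 in IACS-70654 versus WT. Rrm2 stood at 88.7 and 53.05 CPM in WT against 125 and 128 CPM in vehicle and dropped under the limit on size without WT 2 (log2 change 0.48, adjusted p = 0.00253), and Ccne2 was lost without each library of WT and IACS-70654, with adjusted p from 0.015 to 0.073. Phase calls on members thinned to 5000 UMIs put 61.1% and 66.7% in WT, 60.9% and 58.1% in vehicle mice and 58.7% and 56.99% with IACS-70654 in G1. The S share was 21.1% and 16.1% in WT, 19.2% and 25.7% in vehicle mice and 21.95% and 24.5% with IACS-70654, and the G2/M share 17.8% and 17.2% in WT, 19.9% and 16.2% in vehicle mice and 19.3% and 18.5% with IACS-70654. In S and G2/M the vehicle libraries overlapped those of both other groups, whereas both IACS-70654 libraries lay above both WT libraries. Without thinning the S share was higher in every library, at 33.6% in WT, 46.2% in vehicle and 42.5% in IACS-70654 on average, so phase shares are a description only.

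Markers of other lineages moved with this comparison too. Eosinophil genes stood lower in IACS-70654, as in Epx, eosinophil peroxidase, at 33.7 and 45.2 CPM in vehicle against 5.68 and 2.04 CPM in IACS-70654 (log2 change -3.12 ± 0.21 SE, adjusted p = 2.5e-14), but no more than 5.20% of members of any library had a UMI of it. Prg2, at 202 and 252 CPM in vehicle against 50.4 and 14.5 CPM in IACS-70654 (log2 change -2.61 ± 0.15 SE, adjusted p = 6e-17), also came from few cells. Its differences were -0.011 from vehicle here and 0.03 between vehicle and WT without the members carrying UMIs of other lineages, which were left out by that gene among others. Leaving out members with 5 or more UMIs of Epx and Prg2, of basophil and mast, of platelet or of erythroid genes removes the differences of those genes by construction. Without those members 396 genes were called, 345 of them shared with the 405. S100a8, Cst7 and Hdac9 kept their calls there. The summed erythroid markers were 282 and 227 CPM in WT, 189 and 97.3 CPM in vehicle, and 99.7 and 155 CPM in IACS-70654, and megakaryocyte markers 37.7 and 61.9 CPM in WT, 65.7 and 18.9 CPM in vehicle, and 21.5 and 22.7 CPM in IACS-70654. Their part in the remaining results was not tested.

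**Figure D4:**
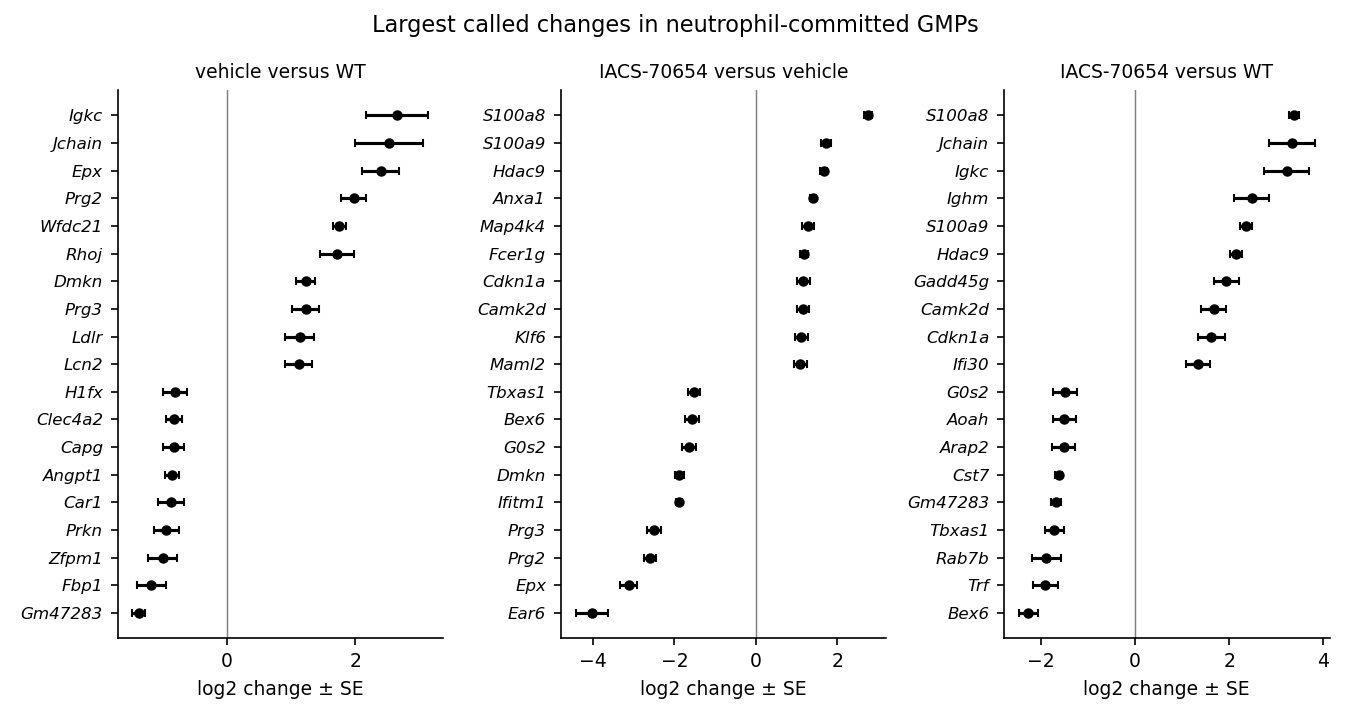
Log2 change (points) ± SE (lines) of up to 10 called genes with the largest change in each direction in the 3 comparisons, among genes with at least 20 CPM on average in 1 of the groups and no overlap of libraries. S100a8 led the rises with IACS-70654 in both right panels, at 2.75 and 3.38, while Igkc, Jchain, Ighm, Epx, Prg2, Prg3 and Ear6 came from few cells.

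The fourth question was where IACS-70654 members stood against those of untreated, non-tumor-bearing mice. This comparison shares its libraries with the other 2 and is not independent of them. Between IACS-70654 and WT 249 genes were called (2.3% of those tested), 71 higher (0.656%) and 178 lower (1.65%), around a median of -0.0057. Under the rule without Fcnb 235 were called, 221 of them among the 249. DESeq2 called 89, all of them among the 249. Thinning gave 99 calls, of which 87 were among the 249. Counts without single libraries are given below. S100a8 was 11.3 times its WT mean (log2 change 3.38 ± 0.10 SE, adjusted p = 5.5e-25) and S100a9 5.54 times (log2 change 2.36 ± 0.13 SE, adjusted p = 5.9e-17). Leaving out any 1 library moved S100a8 between 3.13 and 3.86 and S100a9 between 2.03 and 2.96 on the log2 scale. Hdac9 (log2 change 2.15 ± 0.13 SE, adjusted p = 3.1e-15), Anxa1 (log2 change 1.11 ± 0.09 SE, adjusted p = 9.5e-12), Cst7 (log2 change -1.62 ± 0.078 SE, adjusted p = 2.3e-18), Nkg7 (log2 change -0.87 ± 0.049 SE, adjusted p = 2.9e-16) and Cd63 (log2 change -0.87 ± 0.055 SE, adjusted p = 6.3e-15) differed from WT in the direction in which they differed from vehicle.

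Pim1, Gm47283, Angpt1 and Lcn2 were also called between vehicle and WT. Pim1 stood at 50.6 and 49.1 CPM in WT against 123 and 111 CPM in IACS-70654 (log2 change 1.19 ± 0.11 SE, adjusted p = 7.9e-10), Gm47283 at 146 and 141 CPM in WT against 43.9 and 51.5 CPM in IACS-70654 (log2 change -1.68 ± 0.11 SE, adjusted p = 8.6e-15) and Angpt1 at 108 and 108 CPM in WT against 55.5 and 55.6 CPM in IACS-70654 (log2 change -1.02 ± 0.11 SE, adjusted p = 3.1e-08). Lcn2 stood at 13.4 and 10.8 CPM in WT against 29.6 and 32 CPM in IACS-70654 (log2 change 1.23 ± 0.22 SE, adjusted p = 0.00013). The calls of Pim1, Gm47283 and Angpt1 were kept under every alternative, and that of Lcn2 was not. For these 4 the difference between IACS-70654 and vehicle did not pass (0.10, -0.29, -0.15 and 0.11 on the log2 scale). Hist1h1b, a replication-dependent linker histone, stood at 99.6 and 127 CPM in WT against 184 and 231 CPM in IACS-70654 (log2 change 0.85 ± 0.10 SE, adjusted p = 1.5e-07), and Gadd45g, a growth arrest and stress gene, at 6.94 and 8.84 CPM in WT against 31.7 and 27.9 CPM in IACS-70654 (log2 change 1.94 ± 0.26 SE, adjusted p = 9.1e-07). Ly6c2, a surface antigen of monocytic and granulocytic cells, stood at 68.4 and 54.03 CPM in WT against 27.4 and 27.9 CPM in IACS-70654 (log2 change -1.25 ± 0.15 SE, adjusted p = 1.2e-07). Gadd45g and Ly6c2 were called between IACS-70654 and vehicle as well (0.94 and -0.54 on the log2 scale), and for all 3 the vehicle mean lay between those of WT and IACS-70654. The Gadd45g call was lost with DESeq2 (adjusted p = 0.0351). That of Ly6c2 was lost with DESeq2 (adjusted p = 0.117), under the rule without Fcnb (log2 change -0.32, adjusted p = 0.0668), without IACS-70654 1 (adjusted p = 0.0507) and, by size, without vehicle 2 (log2 change -0.45, adjusted p = 0.00707). Of stem and multipotent progenitor genes 0 of 22 tested genes rose and 5 fell (median log2 change -0.11), against 0.656% and 1.65% of all genes. DESeq2 called 2 genes of this list. The calls of Hoxa7, Hoxa9 and Mecom were lost with DESeq2 (adjusted p = 0.139, 0.0226 and 0.012), in thinned members (0.629, 0.163 and 0.0424), and without single libraries, among them WT 1 for Hoxa7 (0.468) and Hoxa9 (0.0235) and WT 2 for Mecom (0.0848).

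The last question was which changes between IACS-70654 and vehicle differed from those in monocyte progenitors, the only class tested against the members. The change in the members was set against that in the 3653 monocyte progenitors of the same libraries in 1 model with the library as a block. Of 12042 genes, 262 differed (2.18%), 94 toward higher values in the members (0.781%) and 168 toward lower (1.4%). Anxa1 rose in the members and not in monocyte progenitors, where it was at 74.9 and 68.9 CPM in WT, 86.6 and 80.6 CPM in vehicle, and 92.9 and 98.8 CPM in IACS-70654 (difference of log2 changes 1.28 ± 0.085 SE, adjusted p = 3.5e-27). Fcer1g rose in the members (1.19) and was at -0.29 in monocyte progenitors (difference 1.49 ± 0.092 SE, adjusted p = 8.7e-30). Irf8, whose call in the members was not stable, was at 0.94 and -0.50 (difference 1.44 ± 0.15 SE, adjusted p = 1.9e-14). Wfdc21 (difference -1.63 ± 0.22 SE, adjusted p = 2.7e-09), Cd63 (-1.30 ± 0.093 SE, adjusted p = 7.5e-25), Tbxas1 (-1.61 ± 0.19 SE, adjusted p = 2.8e-11) and Mecom (-1.26 ± 0.18 SE, adjusted p = 3.4e-08) fell in the members, while in monocyte progenitors they stood at 0.23, 0.36, 0.085 and 0.14 on the log2 scale. Thinning gave 126 calls, and how many of these were among the 262 is not given here. Counts without single libraries are given below.

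For other genes the difference between the classes did not pass. Cst7 changed by -1.48 in the members and -1.71 in monocyte progenitors (difference 0.19 ± 0.10 SE, adjusted p = 0.337), and Dmkn by -1.88 and -1.97 (difference 0.062 ± 0.17 SE, adjusted p = 0.919). Hdac9 differed by 0.38 ± 0.091 SE, adjusted p = 0.00196, and Ifitm1 by -0.47 ± 0.088 SE, adjusted p = 3.4e-05, both under the limit on size. Hp differed by -0.16 ± 0.071 SE, adjusted p = 0.199. These misses do not show equal change. Angpt1 and Dach1, a transcriptional cofactor of progenitors, did not pass in the members (-0.15 and -0.19) but rose in monocyte progenitors by 1.38 and 1.45 on the log2 scale (differences -1.52 ± 0.11 SE, adjusted p = 6.4e-24, and -1.65 ± 0.079 SE, adjusted p = 4.6e-40).

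**Figure D5:**
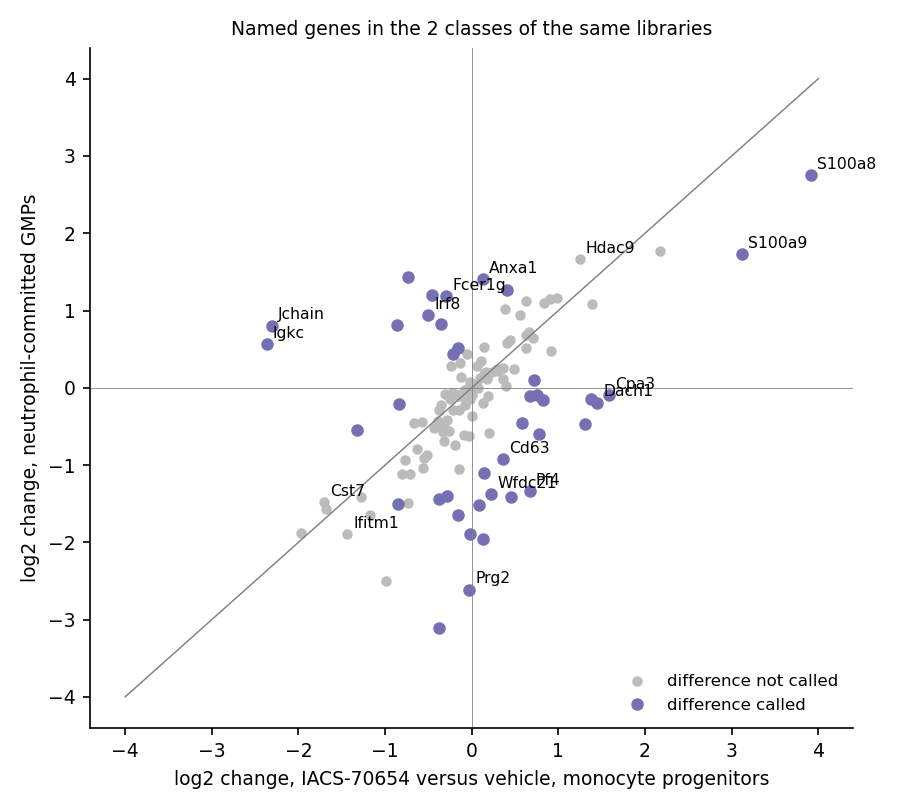
Log2 change between IACS-70654 and vehicle of the named genes outside the rule in monocyte progenitors (horizontal) and in neutrophil-committed GMPs (vertical), purple where the difference between the classes was called and gray where not, with a line of equal change. S100a8 and S100a9 lie right of the line, at 3.91 and 3.12 in monocyte progenitors, Anxa1 and Fcer1g lie above it, Wfdc21 below it, and Cst7 and Dmkn close to it.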

How the data were processed

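Single-cell RNA-seq was run on Lin- c-Kit+ CD45+ DAPI- cells sorted from tibia and femur marrow, with samples tagged by CellPlex oligos and 3′ gene expression libraries. Per the labels and the study's methods, the authors aligned reads to mm10 with Cell Ranger (multi, version 7.2.0 in the matrix header) and deposited filtered matrices of raw UMI counts per gene and cell, with no normalization. Replicates were not pooled in the files. The study tested cells with MAST. Here cells were not taken as replicates, and its thresholds (adjusted p under 0.01, log2 change over 0.5) were kept. Seurat was used by the authors and not here.

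Groups came from the labels. The members, gene lists and tests were chosen with earlier results of these data known. Cells with 200 genes or fewer, 6000 or more, or over 10% mitochondrial UMIs were dropped, and no doublet caller was run. Members with 5 or more UMIs of another lineage were counted, and an alternative leaves them out. UMIs were summed per library over the members (1017986 to 10030676 UMIs, from libraries of 27427163 to 68415534) and tested by the quasi-likelihood F test of edgeR (version 4.0.16, R version 4.3.3) after filterByExpr and TMM scaling, with the 6 libraries in 1 fit and Benjamini-Hochberg adjustment over 10818 genes. The members of WT gave the smallest sums, so low genes are least precise there. Replicates differed beyond sampling noise in each group (chi-square per gene 1.21 to 1.60). Shares were tested with edgeR on cell counts of 10 classes, called at an adjusted p under 0.05, and intervals are exact binomial at 95%, for counting error only. Phases were scored on members thinned to 5000 UMIs. DESeq2 1.42.0, pandas 2.3.3, scipy 1.17.1, matplotlib 3.10.9 and numpy 2.4.6 were run under R or Python 3.11.15, and scripts were tested on simulated data. Promoters were read from a RefSeq table (GRCm38.p6), and gene coordinates from GENCODE vM21, of the same build as mm10.

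Named genes were, for each comparison, the 10 called genes with the largest change in each direction with at least 20 CPM in 1 group and no overlap of libraries, up to 6 called genes per list (or the 2 most abundant where none was called), the 5 largest differences between classes in each direction, and the rule genes. Alternatives were DESeq2, its size factors, no filter on low counts, a replicate block, other cuts of the rule, thinning, fits on 4 libraries, and leaving out each library. Chosen after seeing the data were the rule without Fcnb (also thinned and among myeloid cells), members without UMIs of other lineages and the crossed block. Some genes that the rule names are not reported here, in the text or in the figures. The other 10 libraries of the series were not used here.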

Additional observations from a re-analysis of the deposited data

Results flagged for a closer look

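Between IACS-70654 and vehicle, 10 genes were singled out because their change in neutrophil-committed GMPs differed from that in monocyte progenitors of the same libraries, by edgeR's test of the interaction with Benjamini-Hochberg adjustment. The explanations were not tested.

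Anxa1 (annexin A1) and Fcer1g (the Fc receptor signaling chain) changed by more in the members, with differences of log2 changes of 1.28 and 1.49, and leaving out any 1 library kept both calls. Wfdc21 (-1.63) and Dach1 (-1.65) differed in the other direction, and these calls were kept as well. Dach1 was carried by most members and did not pass within them, and the difference came with a change of 1.45 in monocyte progenitors.

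The immunoglobulin genes Igkc (2.95), Jchain (3.24) and Ighm (1.80) rested on few cells. In the IACS-70654 libraries 1 cell each gave 89.0% and 89.3% of the Igkc UMIs of all members, 87.6% and 88.2% of those of Jchain, and 79.2% and 82.9% of those of Ighm. In vehicle 1 a single cell gave 44.2%, 40.4% and 30.2%.

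Prg2 (-2.56), of eosinophil granules, had 79.5% of its UMIs in 1 cell of IACS-70654 1. The mast cell gene Cpa3 (-1.68) lost its call without vehicle 1 (-1.30, adjusted p = 0.0427). The platelet gene Pf4 (-2.04) lost its call without vehicle 1 (-0.44, adjusted p = 0.813) and without IACS-70654 1 (-1.05, adjusted p = 0.0143).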

How the results depend on the processing

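Counts of called genes between vehicle and WT, IACS-70654 and vehicle, and IACS-70654 and WT were 31, 116 and 89 with DESeq2 and 54, 216 and 99 in members thinned to 5000 UMIs, and the difference between classes gave 126 when thinned. Leaving out 1 library gave 58 to 108, 220 to 443, 113 to 293 and, for the difference between classes, 75 to 273 genes. The lowest counts came without WT 1, IACS-70654 1, WT 1 and vehicle 1. The share of genes called higher moved from 59.2% to 74.2% with DESeq2 and 75.9% when thinned (vehicle versus WT), and from 38.3% to 22.4% with DESeq2 (IACS-70654 versus vehicle). Between vehicle and WT DESeq2 gave an adjusted p for 2163 genes, against 10818 by edgeR, so its count and share cover fewer genes. With the replicate number as a block the counts were 87, 358 and 224, and the share differences under the full rule, Fcnb included, were 1.63, -0.90 and 0.73, against 1.64, -0.90 and 0.74 without the block. Deviations between replicates correlated across groups by 0.055 (WT and vehicle), -0.086 (WT and IACS-70654) and -0.108 (vehicle and IACS-70654) over 2927 genes. Much of each deviation is sampling noise (chi-square per gene 1.21 to 1.60), which pulls such correlations toward 0. They cannot decide whether the numbers pair the libraries. With IACS-70654 1 paired to vehicle 2 and the reverse, the crossed block gave 361 between IACS-70654 and vehicle.

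Of 165 calls of named genes, 165 kept direction and side of the threshold with DESeq2 size factors, 162 with no filter on low counts, 158 with the block, 150 under the rule without Fcnb and 98 when thinned. DESeq2 kept 76 of the 148 for which it gave an adjusted p. As a share of myeloid cells, members by the full rule differed by -0.23 between IACS-70654 and vehicle and by 0.40 between IACS-70654 and WT, and neither passed. Under the rule without Fcnb, chosen after seeing the data, the myeloid shares differed by 0.54 (vehicle versus WT), -0.038 and 0.50, and none passed. Without thinning, G1 shares were 49.2%, 33.9% and 38.2% and S shares 33.6%, 46.2% and 42.5% in WT, vehicle and IACS-70654. Direction turned for Ear6 (IACS-70654 versus WT, 0.52 with Elane at least 20). Without members carrying UMIs of other lineages it turned for Mcpt8 (0.41), Pf4 (0.55) and Prss34 (0.040) in IACS-70654 versus vehicle and Prg3 (-0.69) in vehicle versus WT. Leaving out 1 library moved Pf4 from -1.74 to 0.59 and Prss34 from -2.33 to 0.78 in IACS-70654 versus vehicle, and Ighm from -0.18 to 2.13 and Pf4 from -1.71 to 0.63 in vehicle versus WT, with the turned values without vehicle 1. Epx, Prg2, Mcpt8, Prss34 and Pf4 are among the genes used to leave members out, so their loss there is fixed by construction. The genes above came from few cells, and the cause of the other turns was not tested. Depth limits WT most, with 94 members in WT 2.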

Other observations

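Below 20 CPM, where the rule for named genes did not reach, some genes passed with IACS-70654 against vehicle and were chosen here after their values were seen. Hopx, a homeodomain-only protein of stem cells, was at 0.798 and 0.286 CPM in vehicle and 7.52 and 9.02 CPM in IACS-70654, beside 3.47 and 3.93 CPM in WT (log2 change 3.52 ± 0.40 SE, adjusted p = 1.8e-08, edgeR). Spink2, a serine protease inhibitor of progenitors, was at 0.598 and 0.858 CPM in vehicle and 5.68 and 3.78 CPM in IACS-70654, beside 0.496 and 0.982 CPM in WT (log2 change 2.81 ± 0.46 SE, adjusted p = 2.3e-05, edgeR). Siglece, an inhibitory sialic acid receptor of neutrophils and monocytes, was at 0.299 and 0.572 CPM in vehicle and 3.67 and 3.49 CPM in IACS-70654, beside 0.496 and 1.96 CPM in WT (log2 change 3.15 ± 0.57 SE, adjusted p = 0.0001, edgeR). In each of the 3 the IACS-70654 libraries stood above both vehicle libraries.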
